A study of Mus musculus with 6 samples.

Results

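The melanocyte lineage was followed through 10 genes: the transcription factors *Sox10* and *Mitf*, the receptors *Kit* and *Ednrb*, the melanosome proteins *Pmel* and *Mlana*, the transporter *Slc45a2*, and the enzymes *Tyr*, *Tyrp1* and *Dct*. They were chosen by symbol, and all 10 were found by their Ensembl identifier among the 55536 genes of the count table. The cells were basal cells of the dorsal skin of E16.5 mouse embryos, sorted by FACS as Epcam+ and α6-integrin+. The 3 Ctrl embryos were *Suv39h1* f/f, *Suv39h2*-/- and *Setdb1* f/f without *K14CreERT2*, and the 3 TKO embryos had the same alleles with *K14CreERT2*, so that both groups lacked *Suv39h2*. These genes encode histone methyltransferases that place H3K9me3. The comparison asks how loss of *Suv39h1* and *Setdb1* in the epidermis, in embryos that all lacked *Suv39h2*, changes RNA levels. All embryos were exposed to tamoxifen through the mother, on a mixed genetic background. The keratin 14 promoter drives the recombinase in basal keratinocytes, and the litters are listed as mosaic. The female embryos were replicate 1 of Ctrl and replicate 2 of TKO, with 4 male embryos beside them.

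Melanoblasts, the precursors of melanocytes, arise from the neural crest, partly by way of Schwann cell precursors along nerves, and enter the epidermis and hair follicles of the embryo. SOX10 switches on *Mitf*, and MITF in turn binds promoters of pigment genes. KIT and EDNRB receive signals from surrounding cells that keep melanoblasts alive and moving. PMEL forms the fibrils of the melanosome on which pigment is laid down, and TYR, DCT and TYRP1 are enzymes of melanin synthesis, DCT acting before TYRP1. *Kit*, *Mitf* and *Ednrb* are also used by other cells, such as mast cells for *Kit* and *Mitf*, whereas the other 7 genes are largely restricted to pigment cells and, for *Sox10*, glia. The gate selected keratinocytes, and the study treated cells with melanocyte markers as contaminants in its single-cell data.

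MITF is known to read a motif with the letters TCATGTG, the M-box, which holds the shorter E-box CATGTG. Both motifs and the E-box CACGTG were searched on both strands from 250 bases before to 50 bases after each RefSeq transcript start on GRCm38.p6. Promoters of 6 members were in that table, for *Dct*, *Tyr*, *Tyrp1*, *Kit*, *Mitf* and *Ednrb*. TCATGTG was found in promoters of the 3 enzyme genes, and neither CATGTG nor CACGTG was found in those of *Kit*, *Mitf* or *Ednrb*. Of all 27025 genes in the table, 4.31% had a promoter with TCATGTG, 15.9% one with CATGTG and 8.09% one with CACGTG, and of all 32851 promoters 3.77%, 14.2% and 7.15% held them. The windows of 30 bases shown here place the 3 enzyme genes side by side because they share the motif, which is in capitals, on the strand of the gene. They lie at chr7:87493516-87493545 (minus strand), 22 bases before the start of *Tyr*, at chr4:80834155-80834184 (plus strand), 47 bases before a start of *Tyrp1* that is inside the outer limits of the gene, and at chr14:118052379-118052408 (minus strand), 151 bases before the start of *Dct*. A second TCATGTG in the *Dct* promoter, 232 bases before the start, is on the other strand. The match is one of letters, and no binding was measured in these libraries.
Tyr: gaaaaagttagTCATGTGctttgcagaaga
Tyrp1: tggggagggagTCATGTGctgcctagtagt
Dct: tgcacttagggTCATGTGctaacaaagagg

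Levels are given in CPM, the counts of a gene scaled to the TMM-normalized size of its library. The Ctrl libraries held 102159175, 136515436 and 104422632 counts (replicates 1, 2 and 3) and the TKO libraries 116308383, 108957256 and 118413082. A floor of 3 counts corresponded to between 0.0232 and 0.0303 CPM, and it covers counting error only. The labels do not say that the 3 samples of a group came from separate litters, so p-values measure the spread between these samples. *Setdb1* was at 126, 118 and 121 CPM in the Ctrl libraries and at 95.3, 62.3 and 74.9 CPM in the TKO libraries. The groups did not overlap, but the log2 fold change of -0.65 (SE 0.161) had an adjusted p of 0.286 in edgeR's quasi-likelihood test. *Suv39h1* had a log2 fold change of -0.10 and *Suv39h2* one of 0.11, and *Suv39h2* was read at 15.6 to 18.9 CPM in the 6 libraries although both groups are labelled as lacking it. Reads on a whole gene include exons that a deletion leaves in place, so *Suv39h1* and *Suv39h2* did not check the labels.

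All 10 lineage genes were detected and passed the filter on low counts. None was called in edgeR's quasi-likelihood test (adjusted p under 0.05, with a change of more than 1 on the log2 scale in either direction), against 0.131% of the 20622 tested genes called higher and 0% called lower in TKO. Fitted levels were higher in TKO for 9 of the 10 and lower for *Tyrp1*, where 51.9% of all tested genes were fitted higher. Their median log2 fold change was 0.53, beside 0.01 for all tested genes. This median was 0.20 without TKO replicate 2, 0.23 without Ctrl replicate 1 and 0.65 without Ctrl replicate 3. *Mlana* was the only member with an unadjusted p under 0.05, as were 4.06% of tested genes in the higher direction and 2.02% in the lower, and the only member whose groups did not overlap, as did 6.35% of tested genes in the higher direction and 5.11% in the lower. DESeq2 called *Mlana* and no other member, with 0.936% of genes called higher and 0.102% lower. In bulk RNA of sorted cells, fewer cells of a type and less RNA per cell cannot be told apart, and this holds for each level given here.

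**Figure D1:**
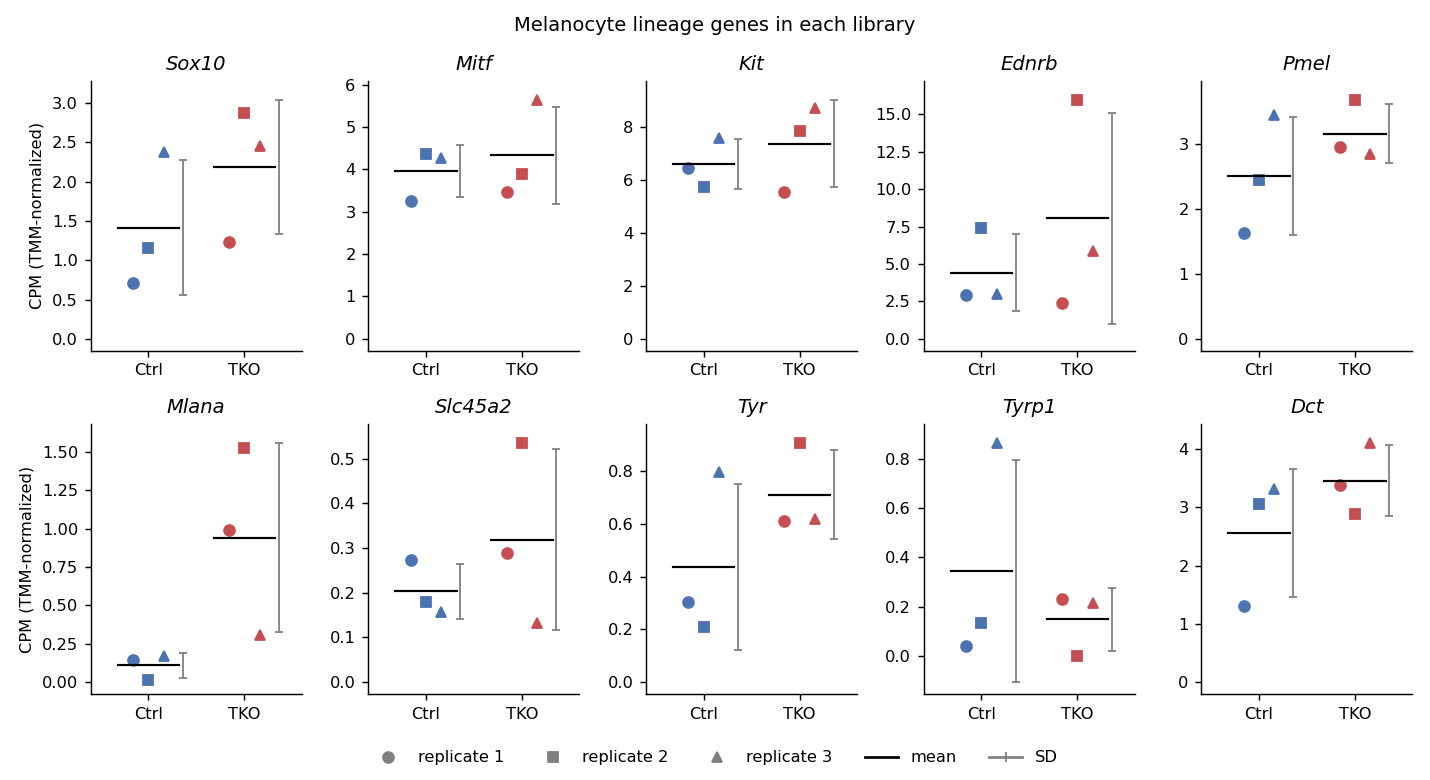
Level of each of the 10 lineage genes in CPM (y axis, linear, own scale per gene) in the 3 Ctrl and 3 TKO libraries, with the group mean as a line and the SD as a bar. For *Mlana* alone the 3 TKO libraries lie above the 3 Ctrl libraries, and *Ednrb* is highest in TKO replicate 2 at 15.9 CPM.

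Of the transcription factors, *Sox10* (chr15:79154913-79164490), which specifies melanoblasts and glia, was at 0.707, 1.16 and 2.38 CPM in Ctrl replicates 1, 2 and 3 and at 1.23, 2.87 and 2.46 CPM in TKO replicates 1, 2 and 3. The groups overlapped, since TKO replicate 1 was close to Ctrl replicate 2 and below Ctrl replicate 3. The log2 fold change was 0.63 (95% interval -0.50 to 1.75, edgeR's adjusted p = 0.9998). It moved from 0.31 without Ctrl replicate 1 to 1.22 without Ctrl replicate 3. *Mitf* (chr6:97807002-98021360), the regulator of pigment genes, was at 3.25, 4.37 and 4.26 CPM in Ctrl and at 3.48, 3.88 and 5.63 CPM in TKO. Here 2 of the TKO libraries lay inside the Ctrl range and TKO replicate 3 lay above it. Its log2 fold change was 0.13 (95% interval -0.52 to 0.77, edgeR's adjusted p = 0.9998), and it was -0.11 without TKO replicate 3. *Mitf* overlaps *Gm15531* and *Gm66437* on the other strand, and the strand setting of the counts is not given in the sources used here, so their reads cannot be told apart.

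Of the receptors, *Kit* (chr5:75574987-75656722), which encodes the receptor of the ligand KITL, was at 6.45, 5.72 and 7.58 CPM in Ctrl and at 5.53, 7.82 and 8.72 CPM in TKO. TKO replicate 1 was the lowest of all 6 libraries and TKO replicate 3 the highest, so the groups overlapped. TKO against Ctrl gave a log2 fold change of 0.16 (95% interval -0.39 to 0.71, edgeR's adjusted p = 0.9998), which was 0.02 without TKO replicate 3 and 0.32 without TKO replicate 1. Mast cells also carry KIT, and 7 of 9 mast cell markers passed the filter. Their summed level was 45.6, 37.2 and 35.5 CPM in Ctrl and 19.8, 27.4 and 52.8 CPM in TKO. *Cpa3*, a mast cell protease, was the most abundant at a mean of 10.4 CPM, and *Fcer1a* was at 0 counts in all libraries. TKO replicate 1 was thus lowest and TKO replicate 3 highest for both *Kit* and the mast cell sum, and the part of mast cells in the level of *Kit* was not tested. *Kit* overlaps *Gm72966* on the other strand.

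*Ednrb* (chr14:103814615-103844508), the endothelin receptor of melanoblasts, had the widest spread of the receptors and factors. It was at 2.92, 7.40 and 2.97 CPM in Ctrl and at 2.37, 15.9 and 5.86 CPM in TKO. TKO replicate 2 stood at more than the sum of the 3 Ctrl libraries, while TKO replicate 1 was the lowest of all. The log2 fold change was 0.86 (95% interval -0.54 to 2.27, edgeR's adjusted p = 0.9998), and without TKO replicate 2 it was -0.11. In that library the endothelial and immune marker sums were also at their highest. The 6 endothelial markers, all tested, summed to 27.1, 27.0 and 37.0 CPM in Ctrl and to 25.1, 64.2 and 51.5 CPM in TKO. *Cdh5*, the endothelial cadherin, was the most abundant of them at a mean of 14.4 CPM. Of 7 immune markers 6 were tested, and the list summed to 18.5, 30.2 and 11.04 CPM in Ctrl and to 5.74, 45.8 and 16.2 CPM in TKO, led by *Csf1r*, the receptor of macrophages, at a mean of 13.0 CPM. No marker of either list was at 0 counts in every library. The part of these cells in the level of *Ednrb* was not tested.

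*Pmel* (chr10:128695888-128720238), which encodes the fibril protein of the melanosome, was at 1.63, 2.45 and 3.45 CPM in Ctrl and at 2.95, 3.68 and 2.84 CPM in TKO. Only Ctrl replicates 1 and 2 lay below all TKO libraries, and Ctrl replicate 3 was above 2 of the 3. This gave a log2 fold change of 0.33 (95% interval -0.44 to 1.10, edgeR's adjusted p = 0.9998), which was 0.10 without Ctrl replicate 1 and 0.63 without Ctrl replicate 3. *Pmel* overlaps *Cdk2* and *Dgka* on the other strand, so reads of those genes could be counted on it.

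*Mlana* (chr19:29697541-29708447) encodes MART-1, a small membrane protein that acts with PMEL in the maturation of melanosomes. It was read 14, 2 and 18 times in Ctrl replicates 1, 2 and 3 and 117, 169 and 37 times in TKO replicates 1, 2 and 3. In CPM these were 0.141, 0.0155 and 0.167 in Ctrl and 0.994, 1.53 and 0.304 in TKO. All 3 TKO libraries were higher than all 3 Ctrl libraries, with TKO replicate 3 much nearer to Ctrl than the others, and Ctrl replicate 2 was below the floor of 3 counts. Ctrl libraries averaged 0.108 ± 0.0811 CPM (SD, n = 3), and TKO libraries averaged 0.943 ± 0.615 CPM (SD, n = 3). The log2 fold change was 3.13 (SE 0.856, 95% interval 1.22 to 5.05), with a p of 0.00457 and an adjusted p of 0.360 in edgeR's quasi-likelihood test. The call depended on the tool and on the filter. Adjusted p-values were 0.0206 with DESeq2 on the same genes, 0.0139 in its default workflow and 0.00195 with edgeR without the filter. Leaving out any 1 library gave a log2 fold change of at least 2.59 (without TKO replicate 2) and at most 3.61 (without Ctrl replicate 3), and edgeR's adjusted p did not go below 0.105. No annotated gene overlaps *Mlana*.

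*Slc45a2* (chr15:11000721-11029233), a transporter that sets the pH of the melanosome, was at 0.273, 0.178 and 0.158 CPM in Ctrl and at 0.289, 0.534 and 0.132 CPM in TKO. TKO replicate 3 was the lowest and TKO replicate 2 the highest of the 6 libraries. Its log2 fold change was 0.65 (95% interval -0.95 to 2.24, edgeR's adjusted p = 0.9998). Without TKO replicate 2 it was 0.05, and without TKO replicate 3 it was 1.02. The counts behind it were between 16 and 59 in a library, which limits the precision.

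The 3 enzyme genes, whose promoters shared the motif, were not alike across the libraries. *Tyr* (chr7:87424771-87493512), which encodes the rate-limiting enzyme of melanin synthesis, was at 0.303, 0.209 and 0.798 CPM in Ctrl and at 0.612, 0.906 and 0.617 CPM in TKO. Ctrl replicate 3 lay within the TKO range and the other Ctrl libraries lay below it. For *Tyr* the log2 fold change was 0.70 (95% interval -0.58 to 1.99, edgeR's adjusted p = 0.9998), with 0.37 when Ctrl replicate 2 was left out and 1.47 when Ctrl replicate 3 was. *Dct* (chr14:118012790-118052246), dopachrome tautomerase and an early marker of melanoblasts, was at 1.30, 3.06 and 3.31 CPM in Ctrl and at 3.39, 2.89 and 4.10 CPM in TKO. Apart from Ctrl replicate 1, which was low, the groups overlapped. For *Dct* it was 0.43 on the log2 scale (95% interval -0.42 to 1.29, edgeR's adjusted p = 0.9998), with 0.12 when Ctrl replicate 1 was left out and 0.66 when Ctrl replicate 3 was. *Dct* overlaps *4930435M08Rik* on the other strand.

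*Tyrp1* (chr4:80834123-80851736), the relative of tyrosinase that acts late in the synthesis of brown-black pigment, was read 4, 17 and 93 times in Ctrl and 27, 0 and 26 times in TKO. It was thus at 0.0404, 0.132 and 0.863 CPM in Ctrl and at 0.229, 0 and 0.214 CPM in TKO, where 0 counts in TKO replicate 2 allow a level of up to 0.0272 CPM. Ctrl replicate 3 was the highest of the 6 libraries, and TKO replicates 1 and 3 were above both other Ctrl libraries. The log2 fold change of -1.21 (95% interval -4.14 to 1.72, edgeR's adjusted p = 0.9998) became 0.76 without Ctrl replicate 3. *Tyrp1* was therefore the only member with a lower fitted level in TKO, and this direction rested on 1 Ctrl library.

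**Figure D2:**
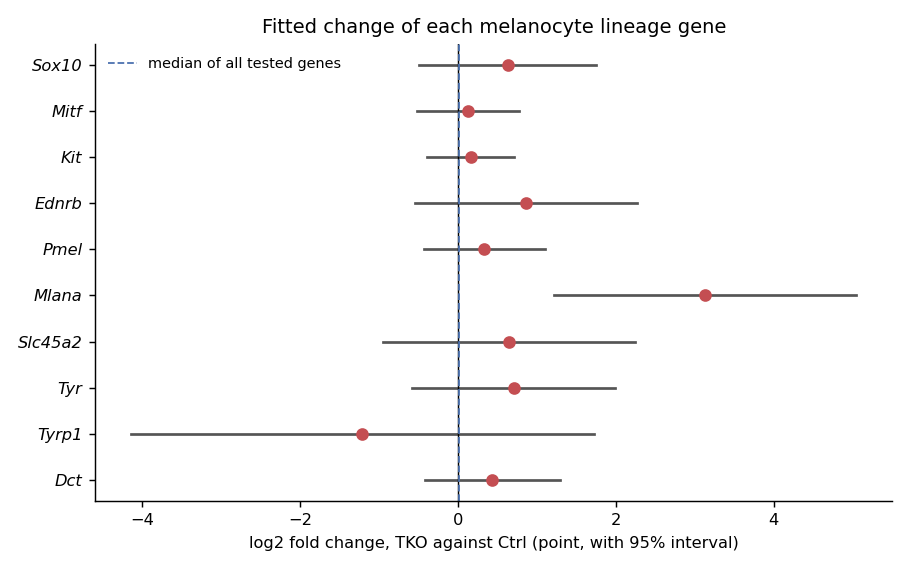
Fitted log2 fold change of TKO against Ctrl (x axis) for each lineage gene, as a point with its 95% interval as a line, from edgeR. The intervals of all genes but *Mlana* (1.22 to 5.05) include 0, and that of *Tyrp1* is the widest.

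Per kilobase of exon, the order of the mean levels was read within each group (n = 3 each). In Ctrl, *Pmel* was at 1.09, *Ednrb* at 0.985, *Kit* at 0.695, *Dct* at 0.434, *Sox10* at 0.425 and *Mitf* at 0.390 CPM per kb, followed by *Tyrp1* at 0.122, *Mlana* at 0.0923, *Slc45a2* at 0.0679 and *Tyr* at 0.0614 CPM per kb. Neighbours in this order had ranges that were apart for *Kit* (0.604 to 0.800 CPM per kb) and *Dct* (0.221 to 0.562 CPM per kb) and for *Mitf* (0.320 to 0.431 CPM per kb) and *Tyrp1* (0.0143 to 0.305 CPM per kb), and the ranges of the other neighbours overlapped. In TKO, *Ednrb* was at 1.79, *Pmel* at 1.38, *Mlana* at 0.806, *Kit* at 0.777, *Sox10* at 0.657, *Dct* at 0.587 and *Mitf* at 0.427 CPM per kb, followed by *Slc45a2* at 0.107, *Tyr* at 0.1001 and *Tyrp1* at 0.0522 CPM per kb. Here ranges were apart for *Mitf* (0.343 to 0.555 CPM per kb) and *Slc45a2* (0.0440 to 0.179 CPM per kb) and for *Tyr* (0.0861 to 0.127 CPM per kb) and *Tyrp1* (0 to 0.0811 CPM per kb), and they overlapped for the other neighbours. *Ednrb* reached 3.55 CPM per kb in TKO replicate 2 and lay between 0.527 and 1.65 CPM per kb in the other 5 libraries. Exon lengths are those of all annotated exons joined, so a gene with long exons that these cells do not use is understated.

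TKO replicate 2 held the highest level of 6 of the 10 genes, TKO replicate 3 of 3 and Ctrl replicate 3 of 1. The lowest level was in Ctrl replicate 1 for 4 genes, in Ctrl replicate 2 for 2, in TKO replicate 1 for 2 and in TKO replicates 2 and 3 for 1 each. The 7 restricted members together were at 4.39, 7.20 and 11.1 CPM in Ctrl and at 9.70, 12.4 and 10.7 CPM in TKO. The means were 7.57 ± 3.38 and 10.9 ± 1.37 CPM (SD, n = 3 each), and Ctrl replicate 3 lay within the TKO range. All 10 members summed to 22.5 ± 4.83 CPM in Ctrl and 30.7 ± 9.495 CPM in TKO, a ratio of 1.36. This ratio was between 1.15 and 1.57 with 1 library left out. Taken per 1000 CPM of 11 basal keratinocyte markers, the members were at 0.658, 0.951 and 1.32 in Ctrl and at 1.25, 2.13 and 1.48 in TKO, a ratio of means of 1.66. The sum of those markers was itself 23823 ± 3622 CPM in Ctrl and 18831 ± 2002 CPM in TKO.

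Ratios of counts within a library compare members without the library size. For every 100 counts of *Pmel*, *Mlana* had 8.70, 0.633 and 4.84 in Ctrl and 33.7, 41.6 and 10.7 in TKO, so that each TKO library was above each Ctrl library here too. *Dct* against *Pmel* was close to level, with 80.1, 125 and 96.0 in Ctrl and 115, 78.6 and 144 in TKO. *Sox10* had 43.5, 47.5 and 68.8 for every 100 of *Pmel* in Ctrl and 41.8, 78.1 and 86.4 in TKO. These latter ratios overlapped between the groups. Among the enzymes, *Tyr* had 23.3, 6.82 and 24.1 counts for every 100 of *Dct* in Ctrl and 18.05, 31.35 and 15.03 in TKO. *Tyrp1* had 3.10, 4.29 and 26.1 for every 100 of *Dct* in Ctrl and 6.77, 0 and 5.21 in TKO, so the high level of *Tyrp1* in Ctrl replicate 3 was not shared by *Dct*.

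Other genes of the lineage were read from lists. Of 11 other genes linked to pigment cells, 8 were tested, 5 fitted higher and 3 lower, with a median log2 fold change of 0.22. Neither edgeR nor DESeq2 called any, and 1 had an unadjusted p under 0.05. That gene was *Mlph*, which tethers melanosomes to myosin, at 1.55, 1.51 and 2.38 CPM in Ctrl and 0.739, 1.15 and 1.09 CPM in TKO. Its groups did not overlap, with a log2 fold change of -0.87 (edgeR's adjusted p = 0.809). *Mc1r*, the receptor of melanocyte-stimulating hormone, was at 0.232, 0.240 and 0.102 CPM in Ctrl and 0.246, 0.616 and 0.386 CPM in TKO, again without overlap, although TKO replicate 1 exceeded the highest Ctrl library by very little (log2 fold change 1.11, edgeR's adjusted p = 0.983). *Rab38*, a small GTPase that brings enzymes to the melanosome and is not confined to pigment cells, was the most abundant gene of the list at a mean of 82.9 CPM, with a log2 fold change of -0.16. *Oca2*, *Gpr143* and *Tspan10* did not pass the filter.

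Of 9 neural crest factors 8 were tested, 5 fitted higher and 3 lower, with a median of 0.09 and no call by edgeR or DESeq2. *Tfap2b*, an AP-2 factor, had the largest fitted change and the only unadjusted p under 0.05 of that list. It was at 178, 173 and 206 CPM in Ctrl and at 275, 281 and 306 CPM in TKO, so that the groups did not overlap (log2 fold change 0.63, edgeR's adjusted p = 0.185). *Lef1*, a WNT effector that keratinocytes also express, was the most abundant at a mean of 356 CPM. Its groups did not overlap either, with 327, 288 and 358 CPM in Ctrl and 361, 364 and 439 CPM in TKO. The log2 fold change of *Lef1* was 0.26 (edgeR's adjusted p = 0.979), and *Sox5* had the lowest fitted change of the list at -0.28. *Foxd3*, which marks early neural crest, had 0 counts in all 6 libraries. Of 12 Schwann cell precursor genes 11 were tested, 7 higher and 4 lower, with a median of 0.16 and no call by either tool. Their summed level was 95.4, 86.5 and 111 CPM in Ctrl and 99.4, 106 and 104 CPM in TKO, led by *Mbp*, which encodes a myelin protein, at a mean of 46.6 CPM. *Dhh*, a Schwann cell ligand, was at 0.151, 0.00774 and 0.102 CPM in Ctrl and at 0.144, 0.815 and 0.132 CPM in TKO. Only TKO replicate 2 lay above Ctrl replicate 1, and *Dhh* had the highest fitted change of that list at 2.07 (edgeR's adjusted p = 0.924). *Sox2* had the lowest at -1.10, with an unadjusted p of 0.0288, an adjusted p of 0.736 in edgeR's test and no overlap of the groups. *Sox2* is also a gene of Merkel cells, whose markers are described with the other cell types.

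**Figure D3:**
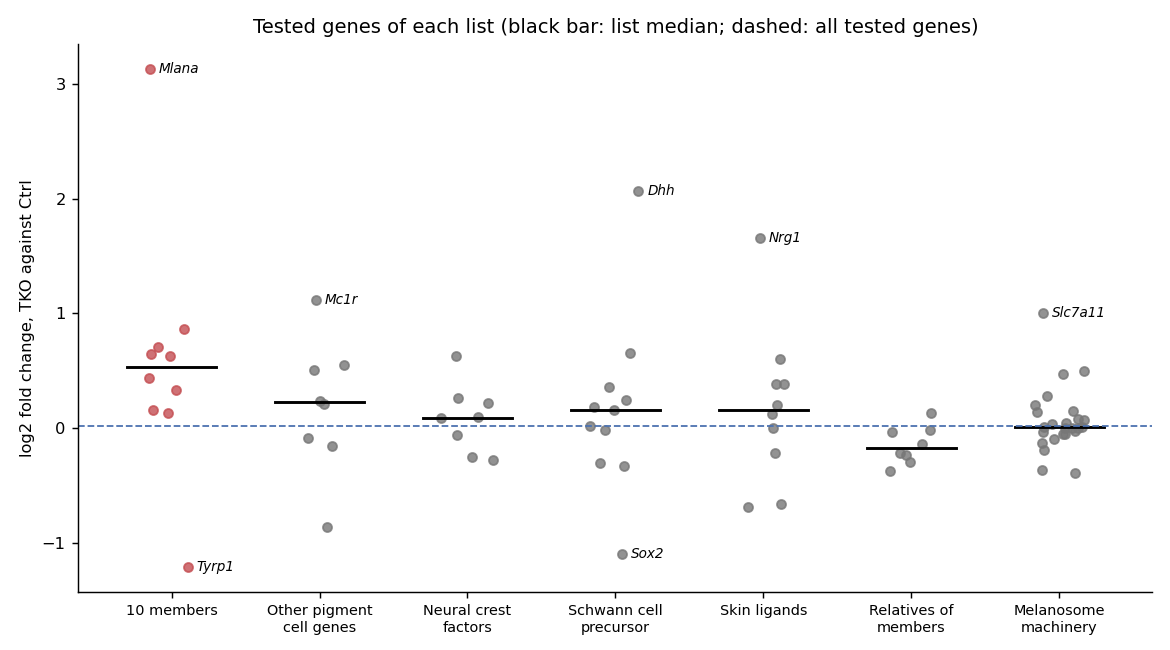
Fitted log2 fold change of TKO against Ctrl (y axis) for each tested gene of 7 lists (x axis), with the list median as a black bar and the median of all tested genes, 0.01, as a dashed line. Genes past an absolute value of 1 are named, and *Mlana* at 3.13 is the highest.

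The melanosome is a lysosome-related organelle, and 25 genes of its transport and assembly machinery were all tested. Of these 13 were fitted higher and 12 lower, the median was 0.01 and neither tool called any. *Ap3d1*, a subunit of the AP-3 adaptor, was the most abundant at a mean of 127 CPM. *Slc7a11*, the cystine transporter that feeds the making of yellow-red pigment, had the highest fitted change at 1.004 (edgeR's adjusted p = 0.786) and the only unadjusted p under 0.05 of that list. *Rab27a*, which carries MLPH on the melanosome, had the lowest at -0.39. Relatives of the lineage factors and receptors were taken as a further list, with 8 of 9 tested. Here 1 was fitted higher and 7 lower, the median was -0.18 and neither tool called any, with 0 at an unadjusted p under 0.05. *Tfe3*, a relative of *Mitf*, was the most abundant at a mean of 66.4 CPM, *Tfeb*, another, had the lowest fitted change at -0.38, and *Csf1r*, a relative of *Kit*, the highest at 0.13.

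Of 11 signals from skin and processing enzymes that act on the receptors or on pigment cells, 10 were tested, 7 fitted higher and 3 lower, with a median of 0.16 and 0 called by edgeR, with 2 at an unadjusted p under 0.05, *Nrg1* and *Edn2*. DESeq2 called 1, *Nrg1*. *Nrg1*, a ligand of ERBB3, was at 2.17, 2.96 and 1.81 CPM in Ctrl and at 8.01, 11.1 and 2.87 CPM in TKO. TKO replicate 3 was below Ctrl replicate 2, so the groups overlapped, and the log2 fold change was 1.66 (edgeR's adjusted p = 0.349). Other annotated genes overlap *Nrg1*. *Edn2*, an endothelin, was at 9.97, 10.46 and 10.4 CPM in Ctrl and at 4.84, 5.17 and 9.13 CPM in TKO. Its groups did not overlap (log2 fold change -0.69, edgeR's adjusted p = 0.736). *Ece1*, which cuts endothelins to their active form, was the most abundant of the list at a mean of 195 CPM. The ligands of the member receptors were added after their values were seen. *Kitl* was at 55.4, 114 and 61.1 CPM in Ctrl and at 93.7, 141 and 66.3 CPM in TKO, with a log2 fold change of 0.38. *Edn3*, the ligand of EDNRB in melanoblasts, was at 0.353, 1.30 and 1.04 CPM in Ctrl and at 0.544, 0.308 and 0.847 CPM in TKO. Both ligands overlapped between the groups.

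The sorted cells carried markers of other cell types beside those of melanocytes. The 11 basal keratinocyte markers were led by *Krt5* at a mean of 9433 CPM, with 6 fitted higher and 5 lower and a median of 0.03. *Krt15*, a basal keratin, had the lowest fitted change of that list at -1.18 (edgeR's adjusted p = 0.185) and was called lower by DESeq2, and *Itgb4* had the highest at 0.24. The 9 fibroblast markers, led by the collagen gene *Col1a1* at a mean of 991 CPM, summed to 1217, 3404 and 3047 CPM in Ctrl and to 2187, 2589 and 2845 CPM in TKO. Ctrl replicate 1, which was lowest for 4 lineage genes, was also lowest for this sum. The summed level of the 8 Merkel cell markers was 21.6, 24.8 and 23.5 CPM in Ctrl and 8.74, 11.7 and 12.0 CPM in TKO, led by *Piezo2* at a mean of 10.8 CPM. All 7 tested Merkel cell markers were fitted lower, with a median of -1.92, and 6 of them had no overlap between the groups. None was called by edgeR and 3 by DESeq2, and 6 had an unadjusted p under 0.05. The part of other cell types in the levels of the lineage genes was not tested.

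**Figure D4:**
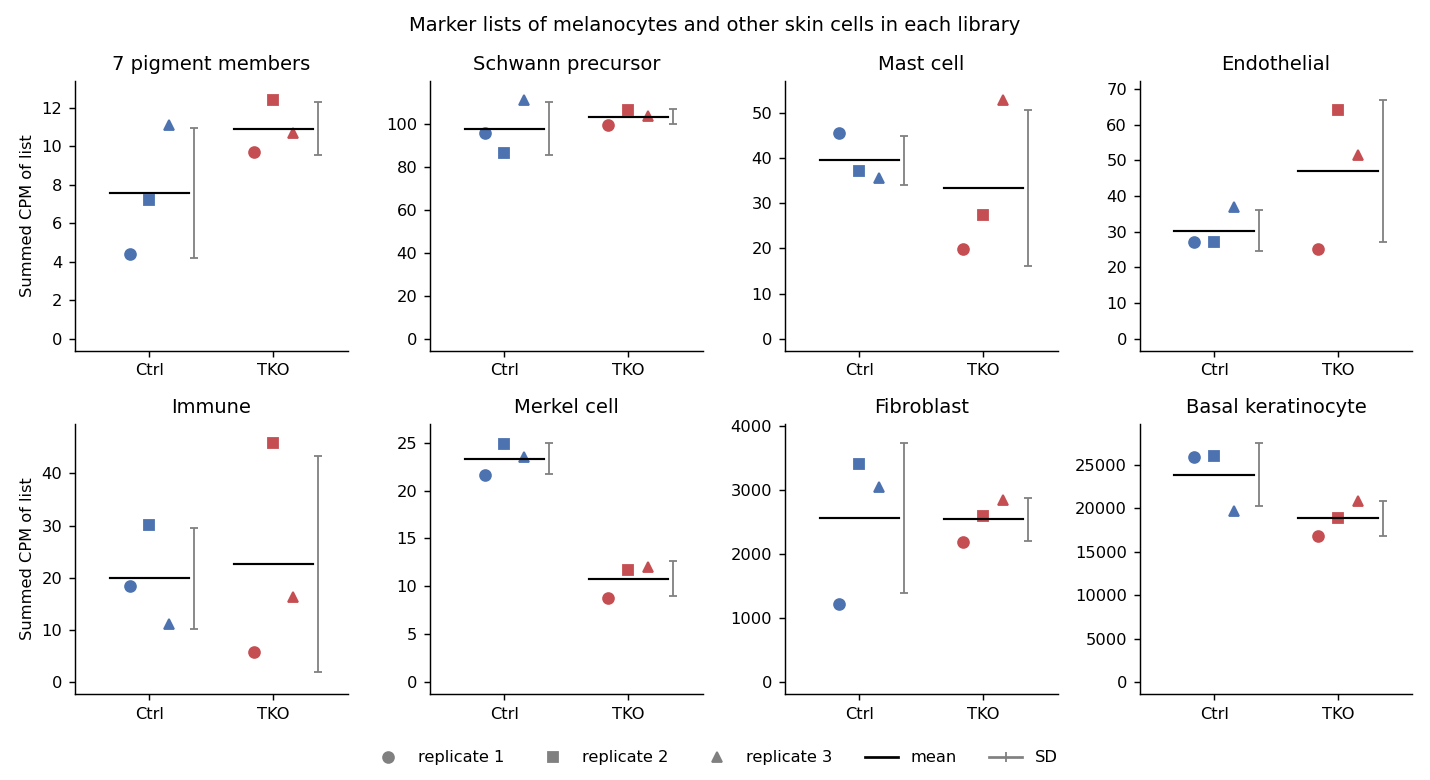
Summed CPM (y axis, linear, own scale per panel) of the 7 restricted lineage genes and of marker lists of other skin cells in the 3 Ctrl and 3 TKO libraries, with the mean as a line and the SD as a bar. The Merkel cell sum is below 13 CPM in all TKO libraries and above 21 CPM in all Ctrl libraries, whereas the groups overlap for the 7 lineage genes.

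The mean profile of the 7 restricted members, the mean of their standardized log2 CPM, was lowest in Ctrl replicate 1 (-0.98) and Ctrl replicate 2 (-0.62). It was 0.42 in Ctrl replicate 3 and 0.33, 0.63 and 0.22 in TKO replicates 1, 2 and 3. The 7 members did not all follow it. Pearson r between pairs of them ran from -0.804 (*Tyrp1* with *Slc45a2*) to 0.891 (*Pmel* with *Sox10*), so the profile averages unlike patterns. Among 14046 other genes with a mean of at least 1 CPM, the 10 with the highest Pearson r to this profile over the 6 libraries were *Pde10a* (r = 0.985), *Gm20457*, *Sel1l*, *Gstcd*, *Pcdhga1*, *Ppp1r16b*, *Bcl2*, *A530017D24Rik*, *Nsmaf* and *D130017N08Rik* (r = 0.971). None of them was on a list used here. *Bcl2*, a survival gene, was at 31.4, 37.3 and 43.9 CPM in Ctrl and at 44.5, 46.8 and 44.6 CPM in TKO, and *Sel1l*, a gene of protein quality control in the endoplasmic reticulum, at 97.1, 99.2 and 114 CPM in Ctrl and at 113, 113 and 112 CPM in TKO. Of the listed genes, the globin gene *Hba-a1* came first (r = 0.824, position 372 of 14046). The 3 genes of the pigment cell list with a mean of at least 1 CPM were spread over the order, with *Trpm1* at position 1040 (r = 0.709), *Mlph* at position 9607 (r = -0.243) and *Rab38* at position 14034 (r = -0.973). The order rests on 6 points that share library depth and cell makeup, and is a description only.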

How the data were processed

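Libraries were made from rRNA-depleted total RNA and read from both ends. The authors trimmed reads with fastp, aligned them with STAR, and deposited whole-number counts for each Ensembl gene, unnormalized, with 3 Ctrl and 3 TKO libraries in 6 columns and no pooling. The methods give GRCm39 and the submitters' processing notes GRCm38. The counting program, annotation and strand setting are not given in the sources used here. GENCODE vM39 supplied symbols, exon lengths and overlaps for 51477 of 55536 genes, which held 86.4 to 94.1% of the counts. Coordinates and promoters are from RefSeq on GRCm38.p6, matched by symbol.

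Counts were filtered with filterByExpr (minimum count 10, minimum total 15), which left 20622 genes, scaled by TMM, and tested with glmQLFit (robust) and glmQLFTest in edgeR 4.0.16 (R 4.3.3, limma 3.58.1), two-sided, with Benjamini-Hochberg adjustment over all tested genes. The study used DESeq2, here an alternative (1.42.0). The biological coefficient of variation was 36.5%. Counts of different replicates differed by far more than sampling noise, with a chi-square per gene of at least 92.8. On simulated counts for TKO against Ctrl (20686 genes), edgeR recovered 80 of 100 genes changed by an absolute log2 fold change of 2 and 100 of 100 changed by 3. It also called 13 of the 20486 unchanged genes in that simulation. Changes were planted only in genes above a minimum expected count, with the same dispersion for all genes. *Tyrp1* and *Slc45a2* were under that minimum, so the recovered shares do not apply to them. The alternatives were DESeq2 on the same genes and in its default workflow (at least 10 counts in total), RLE size factors, no filter, a minimum of 10 counts in each library, a replicate block, sex as a factor, no robust estimation, genes outside the annotation left out, an adjusted threshold of 0.01, and each library left out in turn. Named genes were the members, called genes of each list, its most abundant and most changed genes, and the 10 genes most like the members. Others named were chosen after their values were seen, among them *Suv39h1*, *Foxd3*, *Fcer1a*, *Kitl*, *Edn3*, *Hba-a1* and *Trpm1*. The members and lists were chosen with earlier results of these data known. Figures were drawn with matplotlib 3.10.9 in Python 3.11.15.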

Additional observations from a re-analysis of the deposited data

How the results depend on the processing

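Over all genes the main analysis called 27. DESeq2 called 214 on the same genes and 227 in its default workflow. edgeR called 235 without the filter, 9 with at least 10 counts in every library, 45 under the replicate block and 11 at an adjusted threshold of 0.01. With 1 library left out it called 7 to 81 genes: 8 without Ctrl replicate 1, 7 without Ctrl replicate 2, 8 without Ctrl replicate 3, 15 without TKO replicate 2 and 81 without TKO replicate 3. Of the members, 1 (*Mlana*) was called by DESeq2 in each workflow and by edgeR without the filter, and 0 under the other alternatives. With 1 library left out the log2 fold change of *Tyrp1* ran from -1.74 to 0.76 (without Ctrl replicate 3), that of *Mitf* from -0.11 (without TKO replicate 3) to 0.26 and that of *Ednrb* from -0.11 (without TKO replicate 2) to 1.45, and no other member changed sign under any alternative run. The causes were not tested. The members' median log2 fold change was 0.20 to 0.65 with 1 library left out and 0.50 to 0.54 otherwise, and *Mlana* and *Tyrp1* failed the filter of 10 counts in every library. Medians of short lists also moved with single libraries: leaving out 1 gave -0.11 (without TKO replicate 3) to 0.21 for neural crest factors, -0.12 (without TKO replicate 3) to 0.34 for Schwann cell precursor genes, 0.01 (without Ctrl replicate 1) to 0.26 for skin signals, -0.38 (without TKO replicate 2) to 0.09 (without TKO replicate 1) for relatives of the members, and 0.06 (without Ctrl replicate 1) to 0.35 for other pigment cell genes. The median of Merkel cell genes was -2.60 to -1.84 with 1 library left out and -2.33 to -1.53 under the other alternatives. Same-numbered Ctrl and TKO libraries had correlations of their deviations of 0.0873 to 0.168, and those with different numbers had -0.161 to 0.0398. Same-numbered libraries were thus more alike, and the study used littermates without the recombinase as controls unless it said otherwise. The sample labels do not state pairs, so the main test did not use the numbers, and a pairing that it ignores is possible. With the replicate block *Mlana* had an adjusted p of 0.447 in edgeR's test, and no member was called. Low counts limit *Tyr*, *Tyrp1*, *Mlana* and *Slc45a2*.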

Other observations

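Other marker lists were read in the same libraries, as values only. Of 8 skeletal muscle genes all were fitted higher in TKO, with a median log2 fold change of 2.15. *Myh3*, the embryonic myosin heavy chain, rose by 2.61 on the log2 scale (edgeR's adjusted p = 0.0211) and was the only gene called by edgeR on any list. It was not called under 6 of the alternatives run. DESeq2 called 5 genes of that list. *Ttn* was its most abundant gene at a mean of 13.6 CPM and *Ckm* had its lowest fitted change at 0.45. Of 6 erythroid genes 5 were fitted higher, with a median of 0.72 and no call by edgeR or DESeq2, and the list summed to 20.2, 77.9 and 68.4 CPM in Ctrl and to 65.5, 79.6 and 141 CPM in TKO. Ctrl replicate 1, the library with the lowest sum of the members, was also the lowest for this list. The 8 hair follicle genes were all fitted higher, with a median of 0.12, and 7 suprabasal keratinocyte genes had a median of -0.03, 3 higher and 4 lower. The 5 tested neuronal genes were all fitted lower, with a median of -0.78. Neither tool called a hair follicle, suprabasal or neuronal gene, and 2 suprabasal genes, *Krt1* and *Krt10*, had an unadjusted p under 0.05. Both were lower in TKO without overlap of the groups (log2 fold changes -0.51 and -0.42, edgeR's adjusted p = 0.658 and 0.762). They averaged 8458 and 7410 CPM over the libraries, beside 9433 CPM for *Krt5*. The suprabasal list summed to 18628, 18230 and 20103 CPM in Ctrl and to 16298, 12328 and 13071 CPM in TKO, which its median does not show. Medians of the other lists were -0.13 for fibroblast (2 higher, 7 lower), 0.60 for endothelial (6 higher, 0 lower), 0.16 for immune (6 higher, 0 lower) and -0.23 for mast cell genes (1 higher, 6 lower), and none of the genes of these 4 lists was called by edgeR or DESeq2. Leaving out 1 library moved these medians, from -0.65 (without TKO replicate 2) to 0.62 (without TKO replicate 1) for immune, from -0.86 (without TKO replicate 3) to 0.05 (without TKO replicate 1) for mast cell, from -0.43 (without Ctrl replicate 1) to 0.21 (without Ctrl replicate 2) for fibroblast and from 0.18 (without TKO replicate 2) to 0.87 (without TKO replicate 1) for endothelial genes. It also gave 0.30 (without TKO replicate 3) to 1.09 for erythroid, -0.07 (without TKO replicate 3) to 0.24 for hair follicle, -0.24 (without TKO replicate 3) to 0.06 for suprabasal, -1.21 (without TKO replicate 2) to -0.45 (without Ctrl replicate 2) for neuronal and 1.91 to 2.38 for skeletal muscle genes.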
